A study of Homo sapiens with 12 samples.

Results

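The genes of HLA class I antigen presentation described here were HLA-B, HLA-C, HLA-E, HLA-F, B2M, TAP1, TAP2, PSMB8 and PSMB9, 9 genes in all, each looked up by its Ensembl identifier on the primary assembly in the normalised count tables of 2 prostate cancer cell lines. Of these, 6 had a row among the 59424 identifiers of each table: HLA-B, HLA-C, HLA-F, B2M, TAP2 and PSMB9. The primary identifiers of HLA-E, TAP1 and PSMB8 are not analysed here. GALNT7 is a Golgi enzyme of mucin-type O-glycosylation that adds N-acetylgalactosamine to proteins already carrying it, and the study asked which transcripts follow its level. RNA-seq was performed on CWR22RV1 cells carrying a control short hairpin RNA (shControl) or a hairpin against GALNT7 (GALNT7 KD), and on DU145 cells carrying a control construct (OE control) or a GALNT7 expression construct (GALNT7 OE), in 12 libraries, 3 to a group, which the labels call biological replicates. CWR22RV1 is an androgen receptor positive line from a relapsed prostate cancer xenograft and DU145 an androgen receptor negative line from a prostate cancer metastasis. All 4 groups were stable lines made by lentiviral transduction. The sources used here do not say whether any of them grew from a single clone or whether the replicates were separate cultures. The p-values thus set each group difference against the spread between these libraries, not between independently made lines.

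Class I molecules show peptides from inside the cell to CD8+ T cells. The proteasome cuts proteins into peptides, TAP carries the peptides into the endoplasmic reticulum, and the loading complex places them on a heavy chain paired with beta-2-microglobulin. HLA-B and HLA-C are classical heavy chains, HLA-E and HLA-F are non-classical ones, and B2M encodes the shared light chain. TAP1 and TAP2 form the transporter, and PSMB8 and PSMB9 are the interferon-inducible catalytic subunits that replace PSMB5 and PSMB6 in the immunoproteasome. Transcription of class I genes is raised by interferon through STAT and IRF factors, by NF-kappa B, and by NLRC5 acting with the RFX, CREB/ATF and NF-Y factors. On GRCh38, GENCODE release 29 places HLA-B at chr6:31269491-31357188 and HLA-C at chr6:31268749-31272130, both on the minus strand. The HLA-B model thus runs across most of the HLA-C locus, and reads at HLA-C may have been shared between them. HLA-F lies at chr6:29722775-29738528 and B2M at chr15:44711487-44718877, both on the plus strand. TAP2 lies at chr6:32821833-32838780 on the minus strand and PSMB9 at chr6:32844136-32859585 on the plus strand. All are protein-coding genes, and the values cover whole genes, not single exons.

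The 250 bases before the transcription start of HLA-B, HLA-C, HLA-F and B2M are given here, since the results turn on these 4 genes. The sequences are those of RefSeq on GRCh38.p14, written 5′ to 3′ along the gene, and 8 of the 9 genes had an entry. Capitals mark matches on either strand to the interferon-stimulated response element (GAAA, any 2 bases, GAAA), the NF-kappa B enhancer A site (GGGGA then TTCCC), the canonical NF-kappa B site (GGGAC then TTTCC), the CREB/ATF core TGACG of the X2 box and the Y box CCAAT. The gamma-interferon activated site TTCNNNGAA was also searched.
HLA-B (chr6:31357180-31357429, minus strand): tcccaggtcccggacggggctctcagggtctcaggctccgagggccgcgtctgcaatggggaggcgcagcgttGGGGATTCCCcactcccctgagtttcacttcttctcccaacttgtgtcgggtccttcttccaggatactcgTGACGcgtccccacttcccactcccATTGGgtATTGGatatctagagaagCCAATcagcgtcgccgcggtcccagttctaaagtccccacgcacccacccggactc
HLA-C (chr6:31272093-31272342, minus strand): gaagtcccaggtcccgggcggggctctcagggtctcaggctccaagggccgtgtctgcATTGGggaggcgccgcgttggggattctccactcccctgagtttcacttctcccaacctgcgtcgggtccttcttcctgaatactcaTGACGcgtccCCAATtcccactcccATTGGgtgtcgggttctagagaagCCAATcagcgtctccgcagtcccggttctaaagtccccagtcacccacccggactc
HLA-F (chr6:29723184-29723433, plus strand): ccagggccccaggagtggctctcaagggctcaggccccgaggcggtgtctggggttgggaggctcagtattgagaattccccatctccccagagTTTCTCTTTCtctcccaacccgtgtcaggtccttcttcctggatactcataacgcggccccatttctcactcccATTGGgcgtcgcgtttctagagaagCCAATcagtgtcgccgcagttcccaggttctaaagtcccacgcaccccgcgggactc
B2M (chr15:44711267-44711516, plus strand): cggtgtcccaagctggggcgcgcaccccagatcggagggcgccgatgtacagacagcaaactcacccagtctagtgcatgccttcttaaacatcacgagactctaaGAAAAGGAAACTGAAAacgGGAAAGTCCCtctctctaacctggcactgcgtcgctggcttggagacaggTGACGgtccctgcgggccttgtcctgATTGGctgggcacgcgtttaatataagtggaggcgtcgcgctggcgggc
The HLA windows were more alike among themselves than any of them was to B2M. HLA-B and HLA-C had the same base in 226 of 254 aligned columns, or 89%, against 80.4% for HLA-B and HLA-F and 78.7% for HLA-C and HLA-F. B2M, which lies outside the HLA region, shared 49.2% to 51.4% with these 3 genes. A TGACG stood 106 to 102 bases before the start in HLA-B, 105 to 101 in HLA-C and 75 to 71 in B2M, and 21.2% of all 35116 promoter windows held one. At least 1 CCAAT was present in each of the 4 windows, as in 32% of all windows. The response element was found in HLA-F, 156 to 147 bases before the start, and as 2 overlapping matches in B2M, 144 to 135 and 138 to 129 bases before it, against 3.02% of all windows. The enhancer A site occurred in HLA-B and in 0.0683% of all windows, the canonical NF-kappa B site in B2M and in 0.179%, and TTCNNNGAA in none of these 4 and in 6.57% of all. A match is a run of letters and not a measured binding site. Only exact matches were searched, so a window without one may still hold a variant of the site.

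GALNT7 followed the labels in both lines. Its normalised count was 862, 1042 and 1093 in shControl and 481, 501 and 400 in GALNT7 KD, and 1051, 928 and 913 in OE control and 1988, 2221 and 2334 in GALNT7 OE. The recovered depth was 18364512 to 22264533 reads per library in CWR22RV1 and 21628718 to 24356910 in DU145. The epithelial markers KRT8, KRT18, CDH1 and EPCAM were expressed in both lines, and of the leukocyte list PTPRC and CD3E had mean counts under 1 or were listed at 0 in every group, while CD68, CD14 and ITGAX were expressed in DU145. As in any bulk measurement, fewer cells with a transcript and less of it per cell cannot be told apart.

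In CWR22RV1 cells, HLA-C and B2M transcripts were higher after GALNT7 knockdown. HLA-C rose 2.48-fold and B2M 1.29-fold. The HLA-B groups were apart without passing the test, and TAP2 varied widely in both groups. The primary identifiers of HLA-F and PSMB9 were listed at 0 in all 6 libraries, which does not cover reads under any further identifier.

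HLA-C stood at 248, 291 and 282 normalised counts in shControl and at 712, 644 and 679 in GALNT7 KD. Every knockdown library lay above every control library, with means of 274 ± 22.5 and 678 ± 33.6 (SD, n = 3). The log2 fold change was 1.31 (SE 0.0970, 95% CI 1.08 to 1.54; limma adjusted p = 0.0011). B2M stood at 4677, 4658 and 4418 in shControl and at 6082, 6006 and 5586 in GALNT7 KD. The groups did not overlap, with means of 4584 ± 144 and 5891 ± 267 (SD, n = 3), and the log2 fold change was 0.36 (SE 0.0507, 95% CI 0.24 to 0.48; limma adjusted p = 0.0099).

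HLA-B was at 52.3, 94.6 and 67.8 normalised counts in shControl and at 123, 108 and 192 in GALNT7 KD. The groups did not overlap here either, but the knockdown libraries were spread between 108 and 192. The log2 fold change of 0.96 (SE 0.294, 95% CI 0.26 to 1.66) did not pass the threshold over all genes (limma adjusted p = 0.092). With DESeq2 on the recovered reads it did, narrowly, at an adjusted p of 0.049. TAP2 was at 129, 274 and 101 in shControl and at 48.3, 371 and 223 in GALNT7 KD. Both its lowest and its highest library were knockdown libraries, with a coefficient of variation of 55.4% in control and 75.5% in knockdown. Its log2 fold change of 0.059 had a 95% CI of -1.74 to 1.85 (limma adjusted p = 0.97), so these data bound it only loosely.

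In all, 4 of the 9 genes were tested in CWR22RV1, 2 passed with a higher level and 0 with a lower one. Among all 17906 genes tested, 9.06% passed, 5.28% as higher and 3.79% as lower. The groups were apart with knockdown higher for 3 of the 4 genes, HLA-B, HLA-C and B2M, against 16.9% of all genes, and 32.5% of all genes were apart in either direction. The median log2 fold change was 0.66 over the 4 genes and -0.0063 over all genes tested. The adjusted p of B2M was the more fragile of the 2 calls, since it rose to 0.055 when the variance was moderated without a trend, whereas HLA-C stayed at or below 0.015 in every alternative run.

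**Figure D1:**
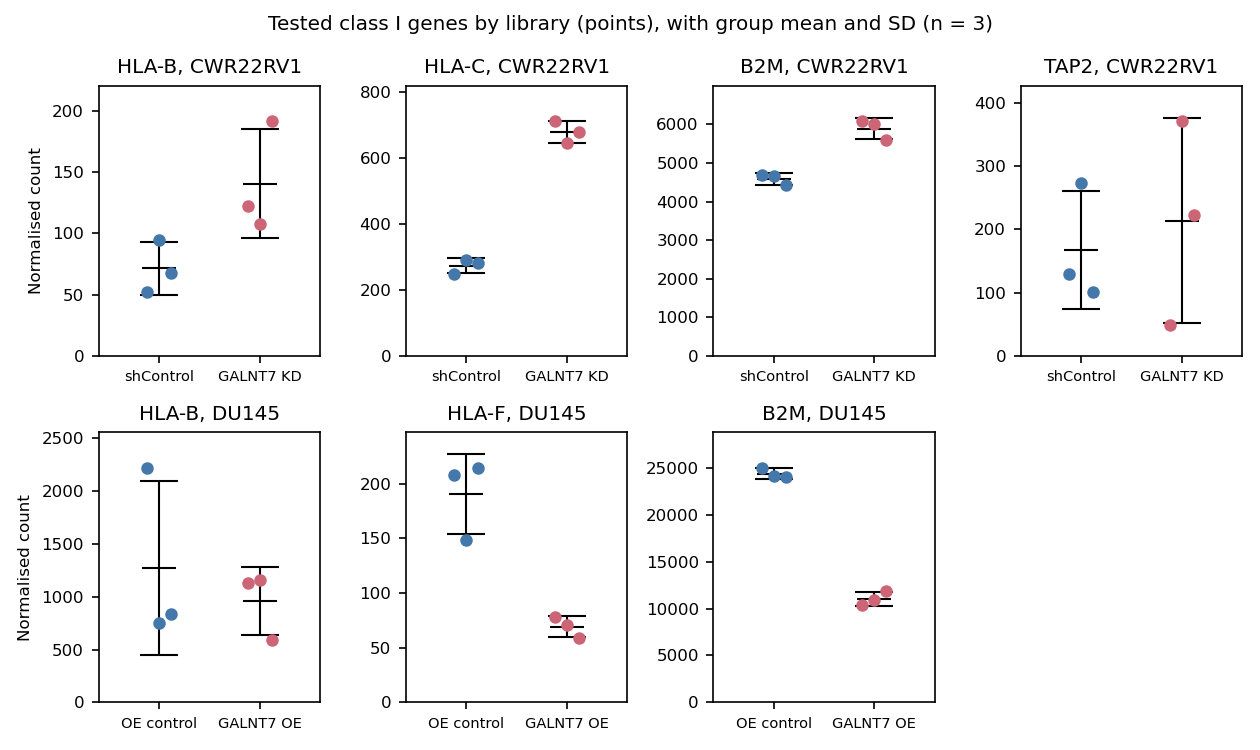
Normalised counts (y axis, from 0) of the class I genes tested under their primary identifier, CWR22RV1 above and DU145 below; each point is 1 library, and the black marks are the group mean and SD (n = 3). HLA-C and B2M lie higher in every GALNT7 KD library than in every shControl library, B2M and HLA-F lie lower in every GALNT7 OE library than in every OE control library, and the groups overlap for TAP2 in CWR22RV1 and HLA-B in DU145.

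In DU145 cells B2M and HLA-F transcripts, read under their primary identifiers, were lower after GALNT7 overexpression. B2M fell to 0.452 of its control level and HLA-F to 0.364. No further identifier of HLA-F could be named, so any counts it has elsewhere are not included. HLA-B under its primary identifier did not separate the groups. HLA-C and TAP2 were almost absent under their primary identifiers in this line, and that of PSMB9 was listed at 0 in all 6 libraries. An empty primary row does not show that a gene was silent, since HLA-C had high counts under a further identifier, given below.

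B2M was at 24995, 24140 and 23958 normalised counts in OE control and at 10327, 10906 and 11833 in GALNT7 OE. The highest overexpression library, at 11833, lay well below the lowest control library, at 23958. The means were 24365 ± 554 and 11022 ± 759 (SD, n = 3), a log2 fold change of -1.15 (SE 0.0524, 95% CI -1.27 to -1.02; limma adjusted p = 1.1e-05). HLA-F was at 208, 148 and 215 in OE control and at 78.2, 71.2 and 58.7 in GALNT7 OE. The groups did not overlap, with means of 190 ± 36.6 and 69.4 ± 9.84 (SD, n = 3), a log2 fold change of -1.43 (SE 0.194, 95% CI -1.89 to -0.97; limma adjusted p = 0.0012).

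HLA-B was at 2220, 754 and 837 in OE control and at 1129, 1156 and 586 in GALNT7 OE. Control replicate 1 stood far above every other library and the groups overlapped. The log2 fold change of -0.29 (SE 0.453, 95% CI -1.37 to 0.79; limma adjusted p = 0.64) turned to 0.20 without that library. HLA-C was at 0, 1.02 and 1.01 in OE control and at 4.01, 0 and 0 in GALNT7 OE, and TAP2 at 0, 10.2 and 0 against 0 in each GALNT7 OE library. These are counts of a few reads at most, below the mean of 5 required for a test.

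Of the 9 genes, 3 were tested in DU145, 0 passed with a higher level and 2 with a lower one. Much of the transcriptome differed between the DU145 groups: 43.5% of the 18705 genes tested passed, 22.9% as higher and 20.5% as lower. The groups were apart with overexpression lower for 2 of the 3 genes, against 27.1% of all genes, and 55.3% of all genes were apart in either direction. The median log2 fold change was -1.15 over the 3 genes and -0.011 over all genes tested.

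**Figure D2:**
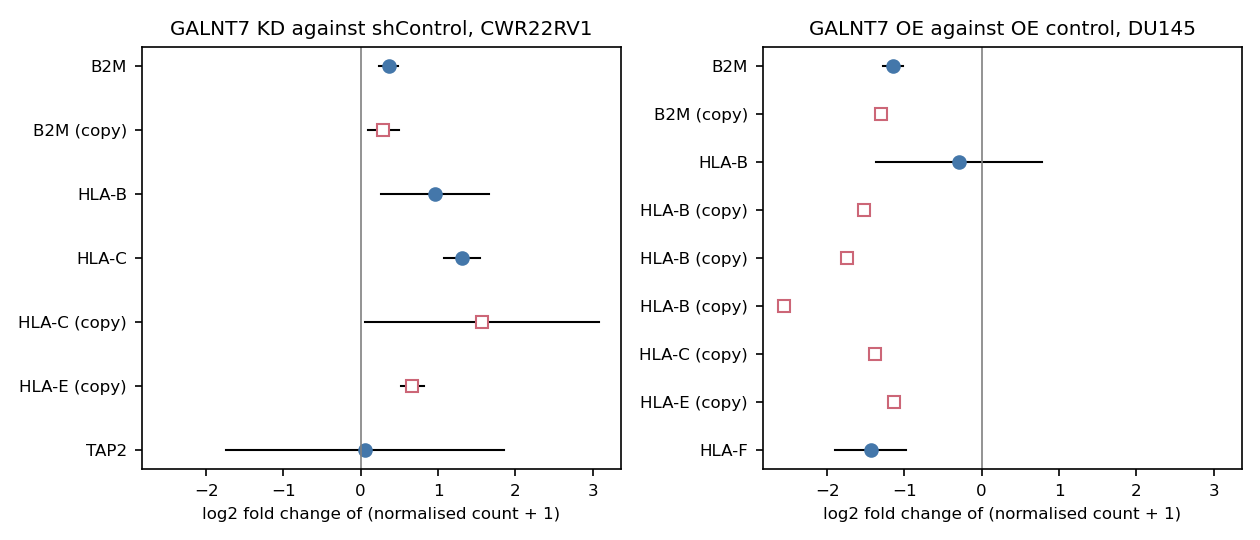
Log2 fold change, treated minus control, in CWR22RV1 (left) and DU145 (right); filled circles are primary identifiers, open squares are further identifiers of the same gene outside the primary annotation, and lines are 95% confidence intervals from limma, drawn only where a value was tested. HLA-C at 1.31 and B2M at 0.36 lie above 0 in knockdown, B2M at -1.15 and HLA-F at -1.43 lie below 0 in overexpression, and the intervals of TAP2 in knockdown and HLA-B in overexpression span 0.

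Much of the HLA signal in these tables stood under further identifiers of the same genes, outside the primary annotation. The MHC region is represented by several alternative haplotypes in the reference, each with its own identifiers. Names for these identifiers were available only from the study's lists of changed genes, so a copy named from the list of a comparison had been chosen on that comparison; its values there are a description with no test. Such a copy is tested only in the other cell line. Sums and shares cover the named identifiers only, and a copy on neither list is left out of them. For HLA-F, TAP1, TAP2, PSMB8 and PSMB9 no further identifier could be named, so their levels outside the primary rows are not known.

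HLA-E, which had no primary row, was present under 1 such identifier, ENSG00000233904, named from the overexpression list. In CWR22RV1 it stood at 1131, 1094 and 1073 normalised counts in shControl and at 1770, 1652 and 1828 in GALNT7 KD. The knockdown libraries all lay above the control libraries, and the log2 fold change was 0.67 (SE 0.0642, 95% CI 0.52 to 0.82; limma adjusted p = 0.0028). In DU145 it stood at 7778, 7629 and 7598 in OE control and at 3492, 3446 and 3497 in GALNT7 OE, 0.454 of the control level.

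Of the 2 named identifiers of HLA-C, ENSG00000228299 held almost all the counts in DU145. It stood there at 11746, 12125 and 11833 in OE control and at 4546, 4406 and 4746 in GALNT7 OE. The primary identifier held at most 0.0881% of the sum over both identifiers. In CWR22RV1 the balance was the reverse, with 93.8% to 98.8% of that sum under the primary identifier, and the summed log2 fold change there was 1.32.

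HLA-B in DU145 was divided over 4 named identifiers, and the primary one held between 8.53% and 32.1% of their sum. Summed over the 4, HLA-B stood at 10320, 8838 and 9355 in OE control and at 3713, 3605 and 2712 in GALNT7 OE. The groups were then apart, and the coefficient of variation of the controls was 7.91%, against 64.8% under the primary identifier alone. The summed log2 fold change was -1.52, and since the further identifiers were taken from genes already called lower in these libraries, that direction is not independent evidence. In CWR22RV1 the primary identifier held 87.1% to 100% of the sum over the 4 and the summed log2 fold change was 0.90.

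B2M was less affected, with 91.0% to 92.6% of its sum under the primary identifier in CWR22RV1 and 91.7% to 93.5% in DU145. The further identifier of B2M, ENSG00000273686, stood at 413 ± 24.8 in shControl and 506 ± 17.9 in GALNT7 KD (SD, n = 3), a log2 fold change of 0.29 that did not pass (limma adjusted p = 0.082). Over both identifiers the log2 fold change of B2M was 0.36 for knockdown and -1.16 for overexpression, against 0.36 and -1.15 for the primary identifier by itself.

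**Figure D3:**
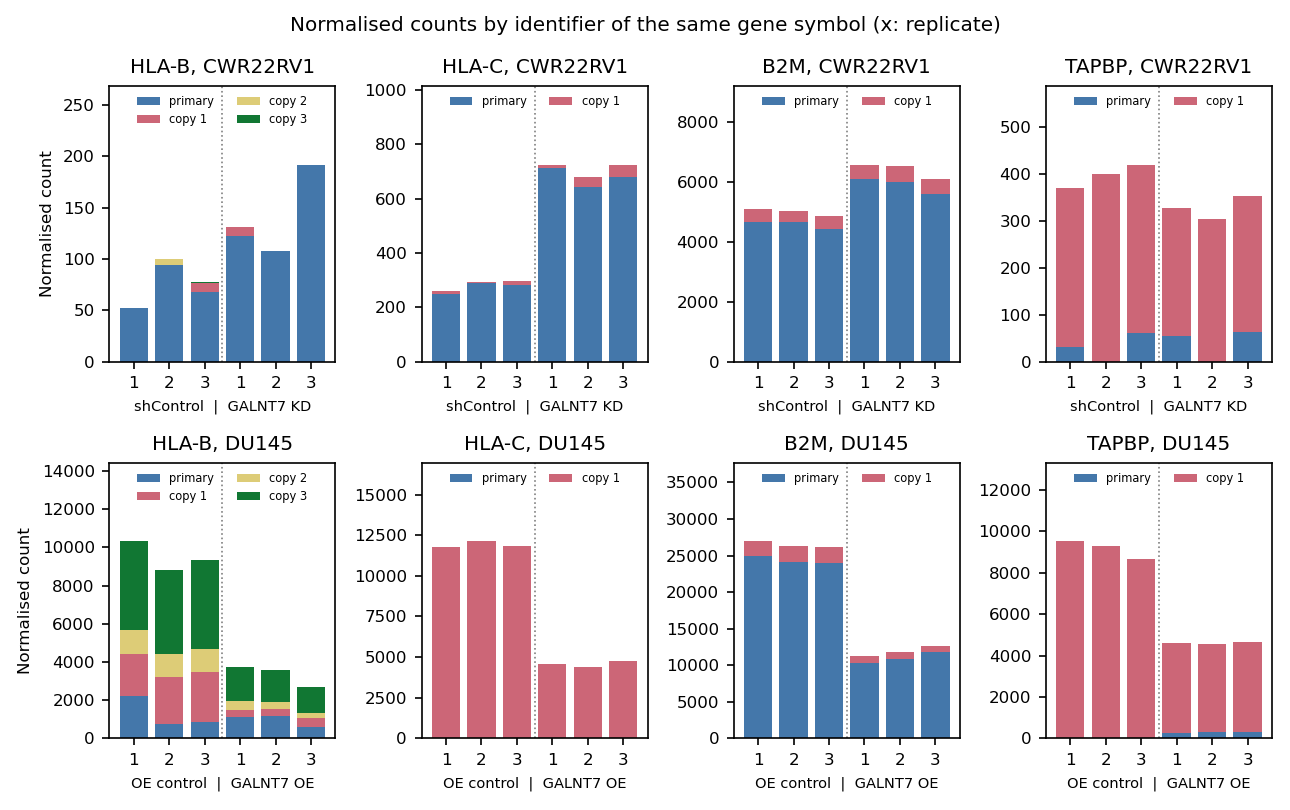
Normalised counts (y axis) under each named identifier of HLA-B, HLA-C, B2M and TAPBP, a loading complex gene, stacked for each library; the dotted line parts control replicates (left) from treated ones (right), and blue is the primary identifier. HLA-C is carried mainly by its primary identifier in CWR22RV1 and by a further one in DU145, HLA-B in DU145 is spread over 4 identifiers, and TAPBP stands mostly under its further identifier.

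The other genes of peptide supply and loading did not move as a block. Of 18 listed genes, all were tested in both lines. In knockdown 4 were higher and 1 lower, against 5.28% higher and 3.79% lower over all genes, with a median log2 fold change of 0.22. HSPA5, the luminal Hsp70 chaperone of the endoplasmic reticulum, rose from 23538, 24027 and 23441 to 39440, 39025 and 38005 (log2 fold change 0.71, limma adjusted p = 6.9e-05). CALR, which holds the heavy chain in the loading complex, rose by 0.46 (limma adjusted p = 0.0040), and its loading partner PDIA3 by 0.35 (limma adjusted p = 0.0026). CANX, the chaperone of newly made heavy chains, named here after its values were seen, had a log2 fold change of 0.31 that did not pass (limma adjusted p = 0.21). SPPL3, a membrane protease, fell by 0.33 on the log2 scale (limma adjusted p = 0.044).

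In overexpression 7 of the 18 were higher and 4 lower, against 22.9% higher and 20.5% lower over all genes, with a median of 0.19. The lower count is near that general rate. The aminopeptidase ERAP1, which trims peptides in the endoplasmic reticulum, fell by 0.99 on the log2 scale (limma adjusted p = 1.0e-04), and the peptide editor TAPBPL fell by 1.19 (limma adjusted p = 0.0031). The constitutive proteasome subunits rose: PSMB6 by 1.08, PSMB5 by 0.73 and PSMB7 by 0.62. CALR was 0.09 lower on the log2 scale (limma adjusted p = 0.035) and HSP90AA1, a cytosolic chaperone, was higher in both comparisons, by 0.28 in knockdown and 0.54 in overexpression. TAPBP, which bridges TAP and the heavy chain, had a log2 fold change of 6.57 under its primary row, from 0, 0 and 26.2 in OE control to 255, 300 and 303 in GALNT7 OE. Its further identifier went the other way, from 9520, 9283 and 8624 to 4332, 4241 and 4334, and the primary row held at most 6.61% of their sum. The sum had a log2 fold change of -0.99, so the direction of TAPBP depends on which identifier is read. That further identifier was named from the overexpression list, so its fall there is a description with no test. In knockdown it stood at 341, 401 and 358 in shControl and at 273, 304 and 292 in GALNT7 KD. It was lower there without overlap and did not pass (log2 fold change -0.34, limma adjusted p = 0.093). The 7 higher genes counted above include TAPBP by its primary row.

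The immunoproteasome could be followed only through PSMB10, the inducible subunit that replaces PSMB7. Its log2 ratio to PSMB7 changed by -0.082 in knockdown and by -0.25 in overexpression, with exact two-sided permutation p-values of 0.6 and 0.3 (0.6 each after adjustment over both ratios). With 3 against 3 libraries such a test cannot go below 0.1. The ratios of PSMB8 to PSMB5 and PSMB9 to PSMB6 could not be computed.

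Among 13 other class I and class I-like genes, 9 were tested in each line. In knockdown 1 was higher and 1 lower, against 5.28% and 3.79% over all genes, and the median was 0.83. FCGRT, the neonatal Fc receptor heavy chain that also pairs with B2M, rose from 34.5, 16.8 and 33.0 to 70.6, 78.9 and 78.0 (log2 fold change 1.47, limma adjusted p = 0.030). AZGP1, a secreted class I-like protein, fell by 0.45 on the log2 scale (limma adjusted p = 0.0039). In overexpression 2 were higher and 4 lower, against 22.9% and 20.5% over all genes, with a median of 0.0036. FCGRT fell there by 0.93 on the log2 scale (limma adjusted p = 0.0014) and MR1, which presents vitamin B metabolites, by 1.10 (limma adjusted p = 9.0e-04), whereas HFE, the iron regulator, rose by 0.84 (limma adjusted p = 0.0013). In CWR22RV1, MR1 had a log2 fold change of 0.94 that did not pass (limma adjusted p = 0.059).

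Of 29 listed transcription factors and interferon pathway genes, 27 were tested in knockdown, with 3 higher and 2 lower, against 5.28% higher and 3.79% lower over all genes, and a median of -0.026. RFX5 rose by 0.68 (limma adjusted p = 0.024), the interferon gamma receptor chain IFNGR1 by 0.49 (limma adjusted p = 0.012) and NFKB2 by 0.48 (limma adjusted p = 0.0074), while ATF1 fell by 0.52 on the log2 scale (limma adjusted p = 0.012) and NFYB by 0.32 (limma adjusted p = 0.029). NLRC5, the class I transactivator, was at 0.933, 7.96 and 4.58 in shControl and at 11.6, 33.1 and 27.0 in GALNT7 KD. These low counts did not overlap but missed the threshold (log2 fold change 2.32, SE 0.673, limma adjusted p = 0.080). IRF1 had a log2 fold change of 0.057 (limma adjusted p = 0.94).

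In overexpression 28 of the 29 were tested, and 16 were lower and 5 higher, against 20.5% lower and 22.9% higher over all genes, with a median of -0.38. STAT2 was at 4259, 4362 and 4287 in OE control and at 1851, 1686 and 1796 in GALNT7 OE (log2 fold change -1.28, limma adjusted p = 7.1e-06). IFNGR1 fell by 1.31 on the log2 scale (limma adjusted p = 2.5e-05), IFNGR2 by 1.19 (limma adjusted p = 0.0055), IRF1 by 0.86 (limma adjusted p = 2.6e-04) and NFKB2 by 0.76 (limma adjusted p = 1.4e-04). The interferon feedback inhibitor SOCS1 fell as well, by 1.54 on the log2 scale (limma adjusted p = 0.0088). NLRC5 had a log2 fold change of -1.05 that did not pass (limma adjusted p = 0.077), with 378, 621 and 347 in OE control and 387, 135 and 175 in GALNT7 OE. RFX5 rose by 0.41 (limma adjusted p = 0.0037) and ATF1 by 0.21 (limma adjusted p = 0.023), whereas NFYB fell by 0.26 on the log2 scale (limma adjusted p = 0.0041). IFNGR1 and NFKB2 thus rose in knockdown and fell in overexpression, RFX5 rose in both, and NFYB fell in both.

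Class II genes, which serve CD4+ T cells, were not tested under their primary identifiers in CWR22RV1, where 10 of 12 had a row and 0 reached the required mean. A further identifier of HLA-DQB1, ENSG00000225824, named from the knockdown list and so a description only, stood at 2643 ± 63.4 in shControl and 1263 ± 59.4 in GALNT7 KD (SD, n = 3). In DU145, 6 were tested and 4 were lower, against 20.5% lower over all genes, with a median of -1.62. CD74, the invariant chain, was at 957, 879 and 851 in OE control and at 212, 199 and 172 in GALNT7 OE (log2 fold change -2.20, limma adjusted p = 1.3e-05). HLA-DRB1 fell by 1.44 on the log2 scale (limma adjusted p = 4.7e-05), HLA-DQB1 by 1.496 (limma adjusted p = 1.4e-04) and HLA-DQA1 by 3.80 (limma adjusted p = 0.0014).

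Of 11 genes linked to class I turnover, 9 were tested in knockdown and 1 was higher, near the 9.06% called over all genes: UBE2L6, a conjugating enzyme for ISG15, by 1.496 (limma adjusted p = 0.042). In overexpression 10 were tested, with 1 higher and 5 lower, against 22.9% and 20.5% over all genes. UBE2L6 fell there by 0.47 on the log2 scale (limma adjusted p = 0.0068), SUSD6 by 1.14 (limma adjusted p = 1.7e-04) and the ubiquitin ligase MARCHF9 by 1.01 (limma adjusted p = 3.3e-04), whereas the ligase MARCHF4 rose by 1.03 (limma adjusted p = 1.5e-04). The medians of the turnover list were 0.036 and -0.29.

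Genes of the MHC region that have no part in antigen presentation served as neighbours for comparison. Of 27 listed, 14 had a primary row. In knockdown 11 were tested and 0 passed with limma, 1 had an unadjusted p under 0.05, and edgeR and DESeq2 also called 0. In overexpression 10 were tested, with 3 higher and 1 lower, near the 43.5% of all genes called. The lower gene was DDR1, a collagen receptor, with a log2 fold change of -1.22 (limma adjusted p = 0.0072). The medians of the list were 0.048 and 0.28. These counts cover primary rows only, and DDR1, LSM2, TUBB and KIFC1 stood mostly or wholly under further identifiers. That of DDR1, named from the overexpression list, was lower in knockdown without overlap and did not pass (log2 fold change -0.35, limma adjusted p = 0.052).

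**Figure D4:**
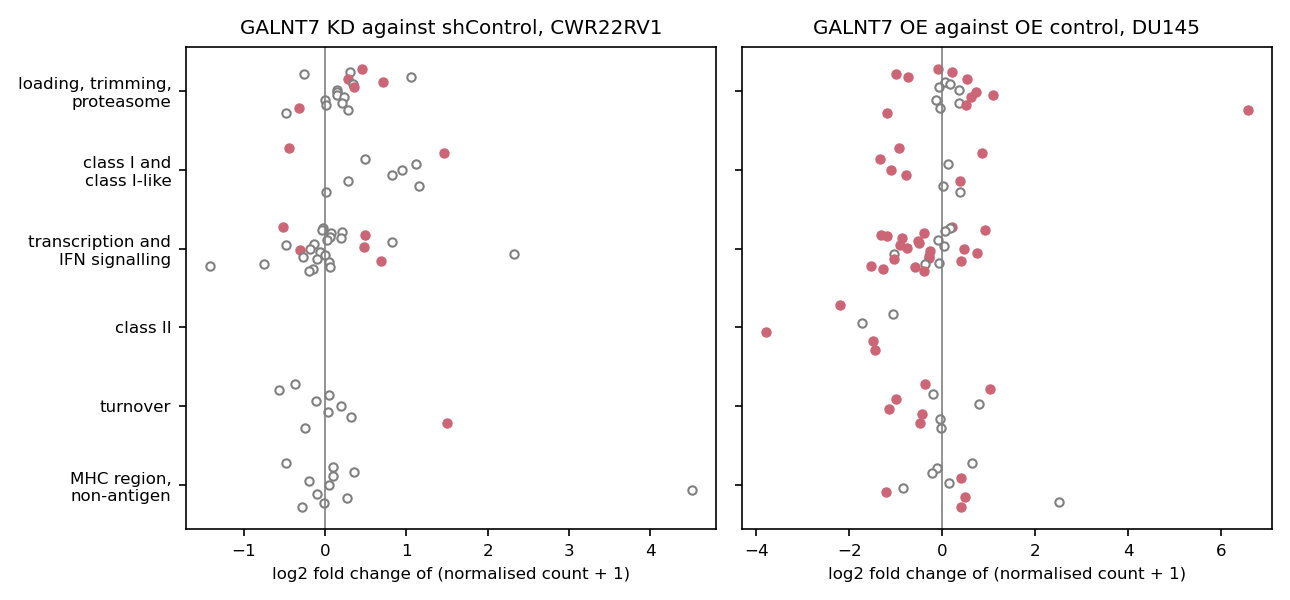
Log2 fold change, treated minus control, of each tested gene in the 6 lists, for CWR22RV1 (left) and DU145 (right); each point is 1 gene, filled where the limma adjusted p passed 0.05, and the vertical spread within a list has no meaning. The 6 tested class II genes all lie below 0 in DU145, where 4 are filled, and the single filled point far to the right is the primary row of TAPBP at 6.57.

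Some markers of other cell types also differed between the groups, while others did not. In DU145 the summed level of 8 leukocyte genes ranged from 2729 to 2916 in OE control and from 1018 to 1171 in GALNT7 OE. Of the 8, 3 were tested and lower, against 20.5% lower over all genes. They were CD68, a lysosomal protein, by 1.37 on the log2 scale (limma adjusted p = 1.5e-05), CD14 and ITGAX, while PTPRC and CD3E were at or near 0. In CWR22RV1 the same sum was 115 to 133 in shControl and 136 to 198 in GALNT7 KD, but of the 2 leukocyte genes tested there 0 passed. The sum of 5 fibroblast genes was 294 to 361 in shControl and 707 to 777 in GALNT7 KD. All 5 were tested there and only 1 passed, LUM (limma adjusted p = 0.0016), against 5.28% higher over all genes. In DU145 the fibroblast sum was 304 to 430 in OE control and 73.0 to 165 in GALNT7 OE, where 2 were tested and 1 was lower. Of 3 endothelial genes, 0 were tested in CWR22RV1, and in DU145 1 was tested and 0 passed. The part of these markers in the class I differences was not tested.

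The genes whose profile was most like the mean standardised profile of the tested class I genes, by the smaller of the Pearson r in the 6 CWR22RV1 and the 6 DU145 libraries, were MYORG, MCEE, MICAL2, NANS and SEPHS2. MYORG, a glycosidase of the endoplasmic reticulum, had r = 0.960 in CWR22RV1 and 0.967 in DU145. NANS, the sialic acid synthase, had r = 0.940 and 0.950. The class I profile was not built from the same genes in both lines. It was the mean of HLA-B, HLA-C, B2M and TAP2 in CWR22RV1 and of HLA-B, HLA-F and B2M in DU145. The libraries of a line share its group difference and its scaling, and r is a description with no test.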

How the data were processed

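RNA was extracted from CWR22RV1 and DU145 stable lines, and poly(A) libraries were made with a stranded kit, per the labels and the study's methods. The submitters' processing notes name FastQC, Salmon, DESeq2, R 3.5.3 and hg38, without their roles, and the annotation release is not given in the sources used here. The authors deposited a signal per gene, normalised counts that are reads divided by a size factor per library, in 1 table per line of 59424 Ensembl identifiers, of which 94.4% are in GENCODE release 29. Salmon estimates need not be whole, yet 100% of the values came back as whole reads (tolerance 0.001). Since the tables were scaled separately, levels were compared only within a line.

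Differences were tested with limma 3.58.1 (lmFit, eBayes with a trend; R 4.3.3) on log2(normalised count + 1), which understates changes of low genes, for genes with a mean of at least 5 over the 6 libraries, two-sided, with Benjamini-Hochberg adjustment over all genes and a threshold of 0.05. edgeR 4.0.16 (1546 calls in knockdown, 8042 in overexpression) and DESeq2 1.42.0 (2642 and 8061) on the recovered reads were alternatives, with other pseudocounts, filters, scalings and left-out replicates. The tests were tried on simulated data. No libraries agreed within sampling noise. Same-numbered libraries did not deviate together (r between -0.011 and 0.075), so numbers were not treated as pairs. The genes and lists were chosen with earlier results of these data known. The genes named were GALNT7, the 9 class I genes, list genes past the threshold in both comparisons or among the 4 largest changes of their list, proteasome partners, NLRC5, IRF1 and the 5 most alike genes with means of at least 50; only some are described, and some genes eligible under this rule are not reported here. Names of further identifiers came from the study's lists of changed genes, of which only identifiers and names were read.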

Additional observations from a re-analysis of the deposited data

Results flagged for a closer look

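Identifiers outside the primary annotation carried signal that the comparisons above mostly leave aside. In CWR22RV1, 655 of them had a mean normalised count of at least 5, of which 37 passed the limma threshold, and in DU145 787 had, of which 267 passed. Among all genes tested, 9.06% passed in CWR22RV1 and 43.5% in DU145, so the outside identifiers passed less often than genes in general. Together the outside identifiers held 1.96% to 2.01% of the reads of a CWR22RV1 library and 1.90% to 2.06% of a DU145 library.

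A further identifier of HLA-DQB1, a class II beta chain named from the study's knockdown list, had a mean normalised count of 2643 in shControl and 1263 in GALNT7 KD, while the primary identifier was too low to test in that line. As the identifier was chosen on these libraries, the difference is a description with no test.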

How the results depend on the processing

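HLA-C in knockdown and B2M and HLA-F in overexpression kept their direction and their side of the threshold under every alternative run. B2M in knockdown missed it with eBayes without trend (0.36, limma adjusted p = 0.055), which left 1 class I gene past the threshold, and reached 0.0499 when replicates were left out. HLA-B in knockdown passed with DESeq2 (0.97, adjusted p = 0.049) and otherwise had adjusted p-values up to 0.24. Its log2 fold change in overexpression moved to -1.52 when identifiers were summed, and ran from -0.58 to 0.20 when replicates were left out, turning to 0.20 without OE control replicate 1 and to 0.029 without GALNT7 OE replicate 3. TAP2 in knockdown ran from -0.55 to 0.91 and turned to -0.063 without shControl replicate 1, -0.24 without shControl replicate 3, -0.55 without GALNT7 KD replicate 2 and -0.18 without GALNT7 KD replicate 3. The count of all genes called in knockdown was 1623, 996 without trend, 1002 with the replicate block, 2642 with DESeq2 and 539 to 1336 when 1 replicate was left out, where fewer samples enter the fit. The replicate block changed no class I call. The causes of the other shifts were not tested. Precision is limited by 3 libraries a group and, for HLA-B and NLRC5 in CWR22RV1, by low counts.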
